A study of Mus musculus with 8 samples.

Results

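The genes described here are 5 cell-surface adhesion molecules through which blood vessels catch white blood cells: the selectins Selp and Sele and the immunoglobulin-family molecules Icam1, Vcam1 and Icam2. They were picked out by symbol, with no cutoff on their values, and all 5 were among the 16333 genes of the authors' deposited tables. The samples were pancreatic islets isolated from mice, measured by RNA sequencing. An islet is a small organ of hormone-secreting cells, chiefly the insulin-producing beta cells, with the small vessels, connective-tissue cells and resident white blood cells between them. Every mouse was labelled with the strain Agouti/C57BL6, and tamoxifen, the drug that switches on the deletion, is named for adults of both genotypes. In the knockout (KO) it removed NFATc2, a transcription factor that enters the nucleus when calcineurin removes its phosphates, from cells that express INS-1 according to the labels, whereas in the wild type (WT) it left the gene intact. The deletion was thus directed at insulin-expressing cells and not at the vessel wall. Islets of 2 KO and 2 WT mice were kept overnight in 5.5 mM glucose and then split into an untreated culture and a culture given IL1β (5 ng/mL), TNFα (10 ng/mL) and IFNγ (50 ng/mL) in 11 mM glucose, each for 2 h. The sample labels do not give the glucose of the untreated culture during those 2 h, and any difference in glucose came together with the cytokines, so their effects cannot be told apart. This design gave 8 libraries in 4 groups of 2, with the mouse as the replicate. The deposited tables call the second genotype Mut, a name found in no label, and it was taken for WT as the remaining genotype.

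White blood cells leave the blood in steps. Selectins on activated endothelium bind sugar-bearing ligands and make the passing cell roll, and members of the immunoglobulin family then bind its integrins and stop it. P-selectin, encoded by Selp, is kept ready in granules of endothelial cells and platelets and can also be made anew in mice, whereas E-selectin, encoded by Sele, is made by endothelium after stimulation. Icam1 and Vcam1 are induced by IL1β and TNFα through the transcription factor NF-κB, and IFNγ also induces Icam1, whereas Icam2 is carried by resting endothelium.

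On GRCm38, as annotated in GENCODE M21, Sele (ENSMUSG00000026582, chr1:164048234-164057677, plus strand) and Selp (ENSMUSG00000026580, chr1:164115264-164150026, plus strand) lie near each other on the same strand. Icam1 (ENSMUSG00000037405) is at chr9:21015985-21028817 on the plus strand, Vcam1 (ENSMUSG00000027962) at chr3:116109949-116129688 on the minus strand and Icam2 (ENSMUSG00000001029) at chr11:106377656-106388075 on the minus strand. All 5 are protein-coding. Exons of Selp overlap those of Gm16587 and Gm16548 on the other strand, Icam1 overlaps Gm47079 and Vcam1 overlaps Gm43109, and no source used here says whether the reads kept their strand, so reads of these neighbours cannot be told apart from those of the members.

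The 250 bases before the transcription start were matched by symbol for 3 of the 5 members (RefSeq, GRCm38.p6, with no entry for Vcam1 and Icam2). They are shown as a description, and no link to the responses below was tested. Capitals mark matches to an interferon gamma activated sequence (GAS, TTCNNNGAA), an AP-1 element (TGANTCA), the TATA box (TATAAA) and a relaxed κB half-site pair (GGANNTTCC), searched on both strands.
Selp, chr1:164115014-164115263: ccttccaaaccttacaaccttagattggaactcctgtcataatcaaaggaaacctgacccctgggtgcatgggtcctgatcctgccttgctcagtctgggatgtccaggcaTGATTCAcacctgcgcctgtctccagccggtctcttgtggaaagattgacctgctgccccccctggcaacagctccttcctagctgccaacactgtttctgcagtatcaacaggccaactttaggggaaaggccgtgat
Sele, chr1:164047984-164048233: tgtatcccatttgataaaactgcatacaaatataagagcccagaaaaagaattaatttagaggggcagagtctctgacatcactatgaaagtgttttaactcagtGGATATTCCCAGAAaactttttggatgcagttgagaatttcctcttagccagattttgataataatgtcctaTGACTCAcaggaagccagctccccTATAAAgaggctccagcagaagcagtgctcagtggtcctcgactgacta
Icam1, chr9:21015690-21015939: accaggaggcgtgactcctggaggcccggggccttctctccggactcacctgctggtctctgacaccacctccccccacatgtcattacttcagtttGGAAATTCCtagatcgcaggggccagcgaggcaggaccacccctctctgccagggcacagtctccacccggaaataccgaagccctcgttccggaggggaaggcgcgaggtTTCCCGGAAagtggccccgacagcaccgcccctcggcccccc
Selp held only an AP-1 match, 139 to 133 bases before its start. Sele held a TATA box 49 to 44 bases before the start, an AP-1 match at 73 to 67, and a relaxed κB match at 145 to 137 that overlaps a GAS match at 140 to 132. Icam1 held a GAS match 42 to 34 bases before the start and a relaxed κB match at 153 to 145, where the pattern is met on both strands. Its distances count from the RefSeq start, which lies upstream of the GENCODE start at chr9:21015985. Among all 32851 promoter windows of this length, GAS matched in 7.02%, AP-1 in 6.75%, the TATA box in 12.4% and the relaxed κB pattern, chosen after the sequences had been read, in 3.59%. The κB consensus, a different pattern that matched in 3.90% of windows, and the NFAT core GGAAAA (in 20.4%) had no match in these 3 windows. The name relaxed does not mean a looser form of that consensus. A match is a run of letters and not a shown binding site.

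The files give group means rather than libraries, but the whole reads behind both libraries of every group were recovered from the printed digits for 16260 genes, the 5 members among them. Levels are given as normalized read counts, the reads divided by the authors' size factor for the library. Within each genotype 1 mouse had Y-linked reads in both cultures and the other had next to none, so the untreated and the cytokine library of the same mouse could be joined, and the mice are called KO female, KO male, WT female and WT male. The libraries held 13317323 to 24477969 reads in these genes. The normalized level of Nfatc2, the deleted gene, was lower in KO islets. Untreated it stood at 1167 and 842 in KO and at 1557 and 1270 in WT, and with cytokines at 987 and 899 against 1646 and 1144, female before male in each pair. The authors' fold changes of KO over WT for Nfatc2 (log2 -0.49, FDR 0.903, and -0.56 with cytokines, FDR 0.474) did not pass an FDR of 0.05, and islet cells outside the deletion are in the sample. The labels do not say which exons were removed. Endothelial markers were present in every library, with all 16 measured and none at 0. Among the WT libraries 1 stood apart: in the WT female mouse the summed level of 10 stromal markers was 2236 untreated and 11335 with cytokines, a level like that of the KO female, whereas in the WT male mouse it was 1897 and 2534. The treated KO female library had the most acinar RNA.

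The 5 genes differed widely in their level and in how much it varied over the libraries. Averaged over all 8 libraries and divided by exon length, Icam2 had the highest mean, at 59.5 ± 35.7 normalized counts per kb (SD, n = 8). Selp at 27.3 ± 26.9, Vcam1 at 23.4 ± 12.1 and Icam1 at 22.5 ± 10.9 per kb lay close together, within their spread, and Sele had the lowest mean at 8.90 ± 7.10 per kb. The order was not the same everywhere: in treated KO islets Vcam1 averaged 37.8 and Icam2 37.5 per kb, and in the treated WT female Selp stood at 88.1 and Icam2 at 45.6 per kb. The highest library exceeded the lowest 67.8-fold for Selp, 19.0-fold for Sele, 4.86-fold for Vcam1, 4.01-fold for Icam2 and 3.42-fold for Icam1. Sele had a mean of 25.9 normalized counts, close to 23.2, the lowest mean of any gene in the tables, so some of its values rest on few reads.

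**Figure D1:**
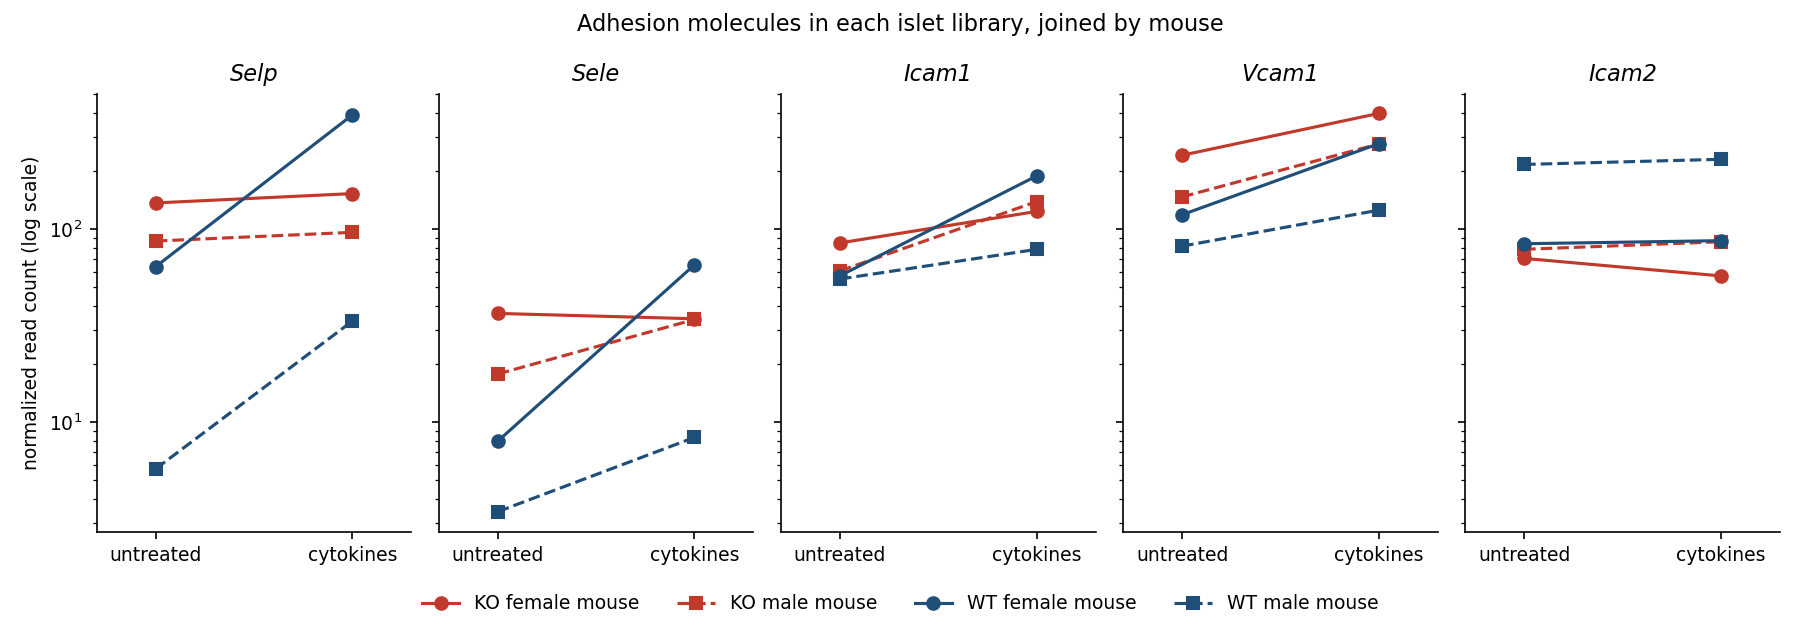
Normalized read counts (log axis) of the 5 adhesion molecules in untreated and cytokine cultures, joined by mouse; red is KO, blue is WT, circles with solid lines are females and squares with dashed lines males. Selp runs from 63.8 to 389 and from 5.73 to 33.3 in the WT mice and is nearly level in the KO mice, Vcam1 and Icam1 slope upward in all 4 mice, and Icam2 is highest in the WT male mouse in both cultures.

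Selp, the gene of P-selectin, was higher with cytokines in both WT mice and by a similar factor, although the mice started from very different levels. Untreated WT islets held 63.8 normalized counts (48 reads) in the female and 5.73 (5 reads) in the male, and cytokine-treated WT islets held 389 (358 reads) and 33.3 (40 reads). The 2 WT groups overlap as groups, because the untreated female stood above the treated male. Within a mouse, Selp was 6.09-fold higher in the WT female (95% exact counting interval 4.50 to 8.42) and 5.82-fold higher in the WT male (2.30 to 18.9). Such intervals cover counting error only. In KO islets Selp stood at 136 and 86.5 untreated and at 152 and 95.9 with cytokines, changes of 1.12-fold (0.873 to 1.43) and 1.11-fold (0.849 to 1.45). The KO libraries overlapped and none of the 4 was as low as the untreated WT libraries.

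The authors' deposited table gave Selp a log2 fold change of 2.57 (SE 1.03) with cytokines in WT, with p = 0.0124 and FDR 0.999908, and 0.16 (SE 1.00, FDR 0.999987) in KO. That model treats the libraries of a group as unpaired. With the mouse as a block, which compares each treated culture with the untreated culture of the same mouse, Selp rose in WT by 2.47 on the log2(normalized count + 1) scale (SE 0.18, limma, adjusted p = 0.00781) and was higher in 2 of 2 mice. Selp was the only member called there, where 24 of 16260 genes, or 0.148%, were called. The SE of 0.18 combines the spread of the changes in mice of both genotypes with the spread usual for genes of similar level. This fit does not weight a value by its reads. The untreated WT male value rested on 5 reads, and the counting interval of that mouse's fold was 2.30 to 18.9. This SE and the blocked SE of the difference below can therefore be too small. In KO the same blocked fit gave 0.15 (SE 0.18, adjusted p = 0.880), and 0.117% of genes but no member were called. The difference between the genotypes' responses was -2.41 from the deposited fold changes (KO minus WT, SE 1.44, 95% interval -5.22 to 0.404, adjusted p = 0.999989). With the block it was -2.32 (SE 0.25, limma adjusted p = 0.190). Neither passed the adjustment over all genes. The deposited difference called 0% of genes (36 had an unadjusted p under 0.05) and the blocked interaction likewise 0% (658 unadjusted).

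Sele, the gene of E-selectin, had the same group pattern with fewer reads and less even changes. Untreated WT islets held 7.98 and 3.44 normalized counts, from 6 and 3 reads, and treated WT islets 65.2 and 8.33, from 60 and 10 reads. The treated WT libraries were both above the untreated ones, the male only just. The change was 8.17-fold in the WT female (3.54 to 23.1) and 2.42-fold in the WT male, whose counting interval of 0.624 to 13.7 includes no change. In KO islets Sele went from 36.5 to 34.3 in the female (0.939-fold, 0.555 to 1.56) and from 17.7 to 34.0 in the male (1.91-fold, 1.13 to 3.32). The KO libraries overlapped. The authors' log2 fold changes were 2.53 (SE 1.12, p = 0.0242, FDR 0.999908) in WT and 0.22 (SE 1.03) in KO, and their difference of -2.31 (SE 1.52) was not called. With the mouse as a block the WT value was 1.98 (SE 0.49, limma adjusted p = 0.223).

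Icam1, the ligand of the leukocyte integrins LFA-1 and Mac-1, was higher with cytokines in all 4 mice. Its untreated level was similar in every mouse, at 84.6 and 60.6 in KO and 57.2 and 55.0 in WT. With cytokines it reached 123 and 138 in KO and 188 and 78.3 in WT, so that treated and untreated libraries did not overlap within either genotype. The change was 1.46-fold and 2.28-fold in the KO female and male and 3.29-fold and 1.42-fold in the WT female and male. The WT male's interval was 0.995 to 2.06. The largest and the smallest change were therefore both in WT mice.

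Vcam1, the ligand of the integrin VLA-4, had the most even response of the 4 inducible genes. It went from 240 to 396 in the KO female, from 146 to 275 in the KO male, from 118 to 276 in the WT female and from 81.4 to 125 in the WT male. Treated and untreated libraries did not overlap within either genotype. The folds were 1.65, 1.88, 2.33 and 1.54 in that order, each with a counting interval above 1.

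Taken over both genotypes in 1 fit with the mouse as a block, Vcam1 rose by 0.86 on the log2 scale (SE 0.11, 1.82-fold, limma adjusted p = 0.0112, higher in 4 of 4 mice). It was the only member among the 142 genes, 0.873% of 16260, called in that fit. Icam1 had 0.98 (SE 0.19, adjusted p = 0.0597), Selp 1.31 (SE 0.40, adjusted p = 0.160) and Sele 1.19 (SE 0.42, adjusted p = 0.206). Weighting each value by its read depth (voom, chosen after the data had been seen) brought Icam1 past the threshold as well, with 1.01 and an adjusted p of 0.0464. Without the WT female mouse Vcam1 was 0.75 higher (adjusted p = 0.0115), without the KO male 0.85 (0.0499) and without the WT male 0.95 (0.0426). Without the KO female mouse the call ended, at 0.91 and an adjusted p of 0.0586. The fit without the block, used as the first choice, called 0% of genes, with 766 at an unadjusted p under 0.05, Icam1 and Vcam1 among them.

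Icam2, the ligand found on resting endothelium, did not follow the other 4. It stood at 70.3 and 78.4 in untreated KO, 57.1 and 85.8 in treated KO, 83.7 and 215 in untreated WT and 86.9 and 229 in treated WT. The folds with cytokines were 0.812, 1.09, 1.04 and 1.06 in the KO female, KO male, WT female and WT male, each with a counting interval that includes 1. In the blocked fit over both genotypes its change was -0.01 on the log2 scale (SE 0.11, limma adjusted p = 0.984).

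**Figure D2:**
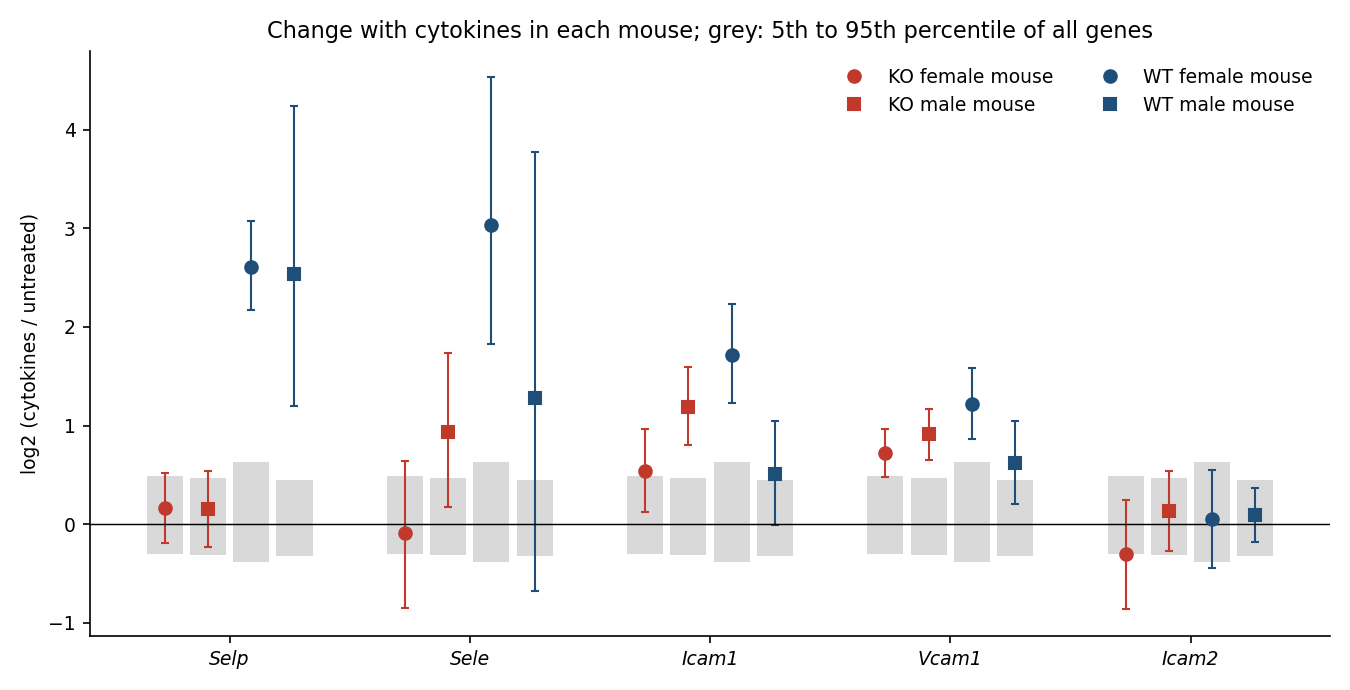
Log2 change of each member with cytokines in each mouse, with 95% exact counting intervals as bars; the grey bands span the 5th to 95th percentile of 16260 genes in that mouse, on the log2(normalized count + 1) scale. The WT points of Selp lie near 2.5 and its KO points inside the band, all 4 points of Icam1 and Vcam1 lie above it, and the 4 points of Icam2 lie inside it.

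Selp, Icam1 and Vcam1 were higher with cytokines in 4 of 4 mice, as were 12.5% of all genes, and Sele and Icam2 in 3 of 4. Treated and untreated libraries did not overlap for 2 members in KO (Icam1 and Vcam1), where 30.0% of genes did not, and for 3 in WT (Sele, Icam1 and Vcam1), where 22.3% did not. By the authors' own test no member passed an FDR of 0.05 for cytokines in KO, where 0.0429% of genes passed (7 genes), or in WT, where 0.0122% passed (2 genes). In WT 4 of the 5 members had an unadjusted p under 0.05 in the authors' table (150 of 16333 genes did), namely Selp, Sele, Icam1 (1.19, SE 0.52, p = 0.0205) and Vcam1 (0.99, SE 0.50, p = 0.0465). In KO none did (166 genes did), with Icam1 at 0.83 (SE 0.51) and Vcam1 at 0.79 (SE 0.49). For these last 2 the difference between the genotypes' responses was -0.37 (SE 0.72) and -0.20 (SE 0.70). Without the WT female mouse the differences in response on the log2(normalized count + 1) scale were -2.20 for Selp, -0.67 for Sele, 0.35 for Icam1 and 0.20 for Vcam1, against -2.32, -1.57, -0.24 and -0.10 with all mice. The sign for Icam1 and Vcam1 thus changed without that mouse, and the value for Sele was largely set by it. Without the KO female mouse Icam1 likewise changed sign, to 0.077, and Vcam1 was -0.008. The median over the members was 0.22 in KO and 1.19 in WT, against 0.00058 and 0.0028 over all genes.

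**Figure D3:**
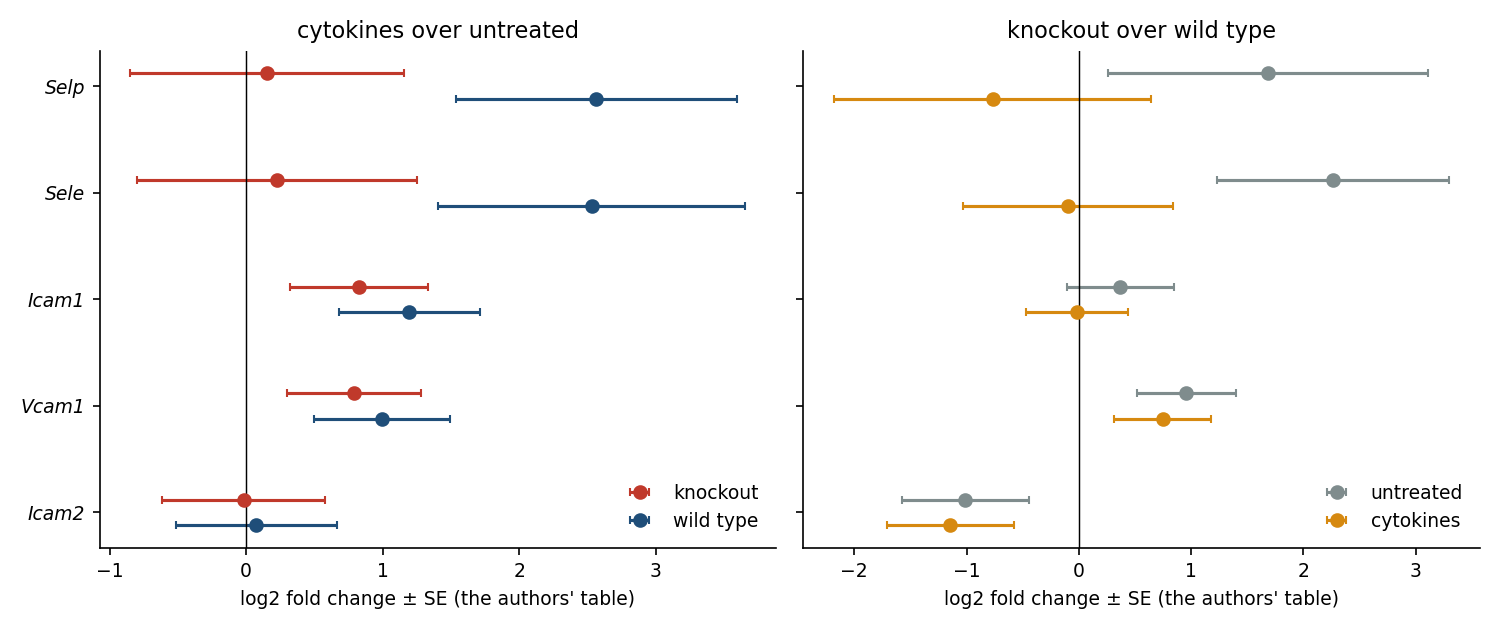
The authors' log2 fold changes with SE bars for the 5 members, at left for cytokines over untreated in KO and WT and at right for KO over WT in untreated and cytokine cultures. Selp and Sele lie near 2.5 in WT and near 0 in KO at left, and at right their untreated values are positive and Icam2 is negative in both cultures.

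In untreated islets the KO libraries lay above the WT libraries for 4 members and below them for Icam2, without any call. Selp stood at 136 and 86.5 in KO against 63.8 and 5.73 in WT, Sele at 36.5 and 17.7 against 7.98 and 3.44, Icam1 at 84.6 and 60.6 against 57.2 and 55.0, and Vcam1 at 240 and 146 against 118 and 81.4. Icam2 was the reverse, at 70.3 and 78.4 against 83.7 and 215. In all 5 the untreated KO and WT libraries did not overlap, which held for 37.0% of all genes. The authors' test called none of the members, and 0.410% of genes. The authors' log2 fold changes of KO over WT were 1.68 for Selp (SE 1.42, p = 0.237), 2.26 for Sele (SE 1.03, p = 0.0289, FDR 0.829), 0.37 for Icam1 (SE 0.47), 0.95 for Vcam1 (SE 0.44, p = 0.0303, FDR 0.837) and -1.01 for Icam2 (SE 0.56, p = 0.0734).

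The untreated values rest on single mice to different degrees. Without the WT male mouse the difference in Selp was 0.76 on the log2(normalized count + 1) scale, and without the WT female it was 4.02, around a value of 2.39 with all mice (limma, adjusted p = 0.476, 0.492 and 0.889). For Icam2 the values were -0.17 without the WT male, -1.52 without the WT female and -0.85 with all mice. Vcam1 kept 0.57 to 1.28 over the 4 mice left out in turn, and Sele 1.56 to 2.58. None of these passed an adjusted p of 0.05.

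With cytokines the WT mice spread to both sides of the KO mice for the selectins and Icam1. Selp stood at 152 and 95.9 in KO against 389 and 33.3 in WT, Sele at 34.3 and 34.0 against 65.2 and 8.33, and Icam1 at 123 and 138 against 188 and 78.3. Vcam1, at 396 and 275 in KO against 276 and 125 in WT, overlapped barely. Icam2 was the only member whose groups did not overlap, lower in KO at 57.1 and 85.8 against 86.9 and 229, where 29.0% of genes did not overlap. The authors' log2 fold changes of KO over WT were -0.77 for Selp (SE 1.41), -0.10 for Sele (SE 0.93), -0.02 for Icam1 (SE 0.45), 0.75 for Vcam1 (SE 0.43, p = 0.0833) and -1.14 for Icam2 (SE 0.57, p = 0.0434, FDR 0.784). No member was called, and 0.998% of genes were. On the log2(normalized count + 1) scale the values for Selp, Sele and Icam1 had the other sign, at 0.076, 0.50 and 0.10. Without the WT female mouse they were 1.83, 1.91 and 0.73, and without the WT male -1.68, -0.91 and -0.52.

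In these bulk samples, fewer cells of a type and less RNA per cell cannot be told apart. The 16 endothelial markers summed to 7032 to 9235 in the KO libraries and to 11217 to 14831 in the WT libraries, so that the libraries with more Selp and Sele when untreated were those with less endothelial RNA. The authors' test put 9 of the 16 lower in KO with cytokines, among them Pecam1 (-0.64, FDR 0.00245) and Cdh5 (-0.65, FDR 0.0154), which hold endothelial cells to one another. In untreated islets it called 0 of the 16, with 15 of them negative and a median of -0.32. Divided by the endothelial sum of the same library, the change of Selp with cytokines was 2.20 on the log2 scale in the WT female and 2.53 in the WT male, against 2.61 and 2.54 undivided, and 0.25 and 0.37 in the KO female and male. Stromal markers moved with the inducible members in some libraries and not in others. They summed to 11257 and 5771 in untreated KO islets against 2236 and 1897 in untreated WT islets, and the step to 11335 in the treated WT female came in the library with the highest Selp, Sele and Icam1. In the WT male, where Selp was 5.82-fold higher, the stromal sum went from 1897 to 2534. In the KO female it went from 11257 to 14805 while Selp and Sele were nearly level, and in the KO male from 5771 to 5413 while Icam1 was 2.28-fold and Vcam1 1.88-fold higher. Leukocyte and macrophage markers (11 measured) summed to 3187 to 4629 in KO and 2106 to 2678 in WT. Among them Ptprc, which encodes the pan-leukocyte marker CD45, stood at 742 and 1089 in treated KO against 151 and 188 in treated WT, a log2 fold change of 2.43 in the authors' table (FDR 8.38e-11). Of 8 platelet and megakaryocyte markers only 3 were measured, together at 89.1 to 156 normalized counts per library. Acinar markers, from the digestive part of the pancreas, summed to 5392 to 72379 in all libraries but the treated KO female, where they reached 123892. Endocrine markers could be summed for 5 of 12 genes, at 40679 to 64352. The hormone genes Ins1, Ins2 and Gcg were among those whose libraries were not recovered. The endocrine sum leaves them out and cannot be set against the acinar sum. The part of these cell types in the members' values was not tested beyond the endothelial ratio.

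**Figure D4:**
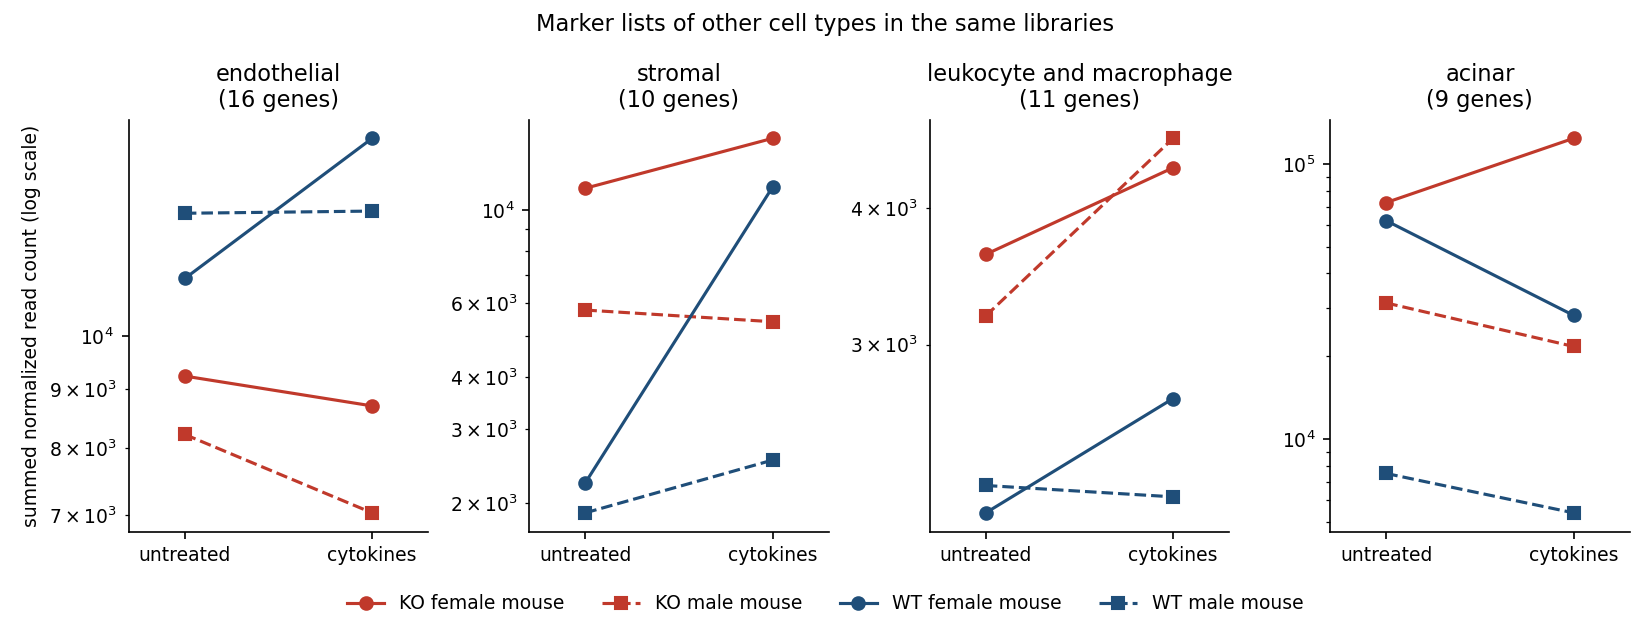
Summed normalized counts (log axes, each panel with its own range) of endothelial, stromal, leukocyte and macrophage, and acinar marker lists in the same 8 libraries, joined by mouse. The stromal sum climbs from 2236 to 11335 in the WT female mouse, and the endothelial sums of the KO mice, 7032 to 9235, lie below those of the WT mice.

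Genes that carry the cytokine signal to the members were read from lists of known pathway members. Receptors for the 3 cytokines (6 genes) had 0 calls in either genotype by the authors' test, with medians of 0.16 in KO and 0.13 in WT. NF-κB subunits and their relays (14 genes) had none either, with medians of 0.04 and 0.01. Relb, an NF-κB subunit that is itself an NF-κB target, was the leading gene, at 1.16 in KO (FDR 0.222) and 1.05 in WT (FDR 0.937), and with the mouse as a block it rose by 1.11 over both genotypes (SE 0.08, limma adjusted p = 0.000763). Nfkb2 and Rel also rose in that fit, by 0.71 and 0.49 (limma adjusted p = 0.00439 and 0.0424). The interferon gamma route (9 genes) had 0 calls in each genotype and 1 in the blocked fit, Irf1, by 0.29 (limma adjusted p = 0.015).

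Feedback inhibitors and other targets of NF-κB had mostly positive fold changes in both genotypes. In KO 13 of 13 were positive (50.3% of all genes were) with a median of 0.86, and 3 passed the authors' test: the chemokine gene Cxcl10 (2.72, FDR 0.000146), Nfkbia, which encodes the inhibitor IκBα (0.96, FDR 0.000771), and Birc3, a ubiquitin ligase of the TNF receptor complex (0.86, FDR 0.00335). In WT 12 of 13 were positive (50.9% of all genes were) with a median of 0.64 and none was called by the authors' test, with Cxcl10 at 2.14 (FDR 0.130) and Birc3 at 0.72 (FDR 0.236). With the mouse as a block 4 were called in KO, the same 3 and Tnfaip3, and 3 in WT, namely Csf1, Birc3 and Tnfaip3. Between the treated genotypes 1 was called, Cxcl10, higher in KO by 1.54 (FDR 0.0308). Over both genotypes with the block, 7 of 13 were called, Cxcl10, Nfkbia and Birc3 among them. The others were Tnfaip3, the deubiquitinating enzyme A20, at 1.13, and the genes of the secreted proteins Cxcl1 at 1.90, Il6 at 1.43 and Ccl2 at 1.47.

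**Figure D5:**
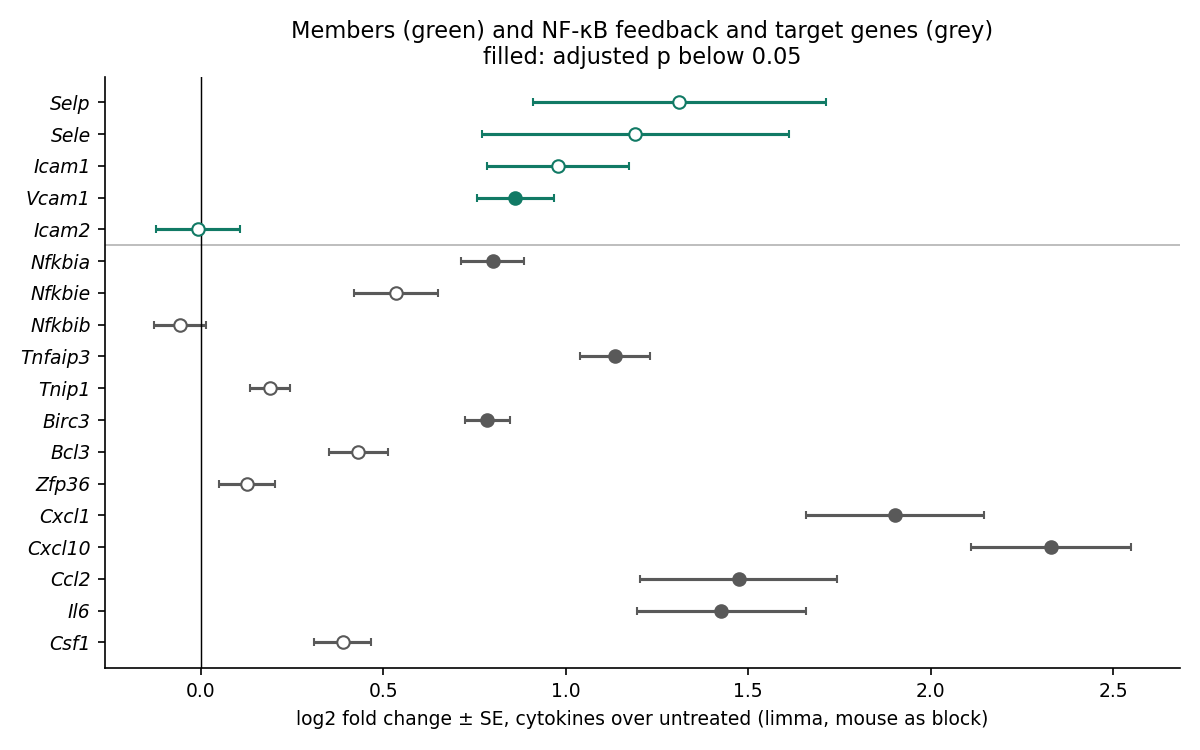
Log2 fold change with SE, cytokines over untreated, in the blocked fit over both genotypes, for the 5 members (green) and 13 feedback and target genes of NF-κB (grey); filled points passed an adjusted p of 0.05. Vcam1 at 0.86 is the filled member, with a short bar, whereas Selp at 1.31 and Sele at 1.19 have long bars and are open, and 7 of the grey genes are filled.

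Partners of the members on white blood cells and in the vessel wall had lower median changes with cytokines than the members. By the authors' fold changes the medians were 0.0027 in KO and 0.16 in WT, against 0.22 and 1.19. Single partners were not all below the members, and the difference was not tested. Of the integrins and selectin ligands that bind the members 8 of 11 were measured, 0 were called with cytokines, and the medians were 0.17 in KO and 0.15 in WT. Selplg, which encodes the P-selectin ligand PSGL-1, had 1.27 (SE 0.79) in KO and 0.72 (SE 0.87) in WT. Its KO value was above that of the highest member there, Icam1 at 0.83. Between the genotypes with cytokines Itgb2, the β chain of LFA-1 and Mac-1, was higher in KO by 1.17 (SE 0.27, FDR 0.00472), and Itgal, the LFA-1 α chain, had 1.57 (SE 0.47, FDR 0.0739). Enzymes that build selectin ligands (6 of 8 measured) had 0 calls in every comparison, with medians from -0.05 to 0.18. Of 20 other adhesion molecules of endothelial junctions and of leukocyte passage 16 were measured, 0 were called with cytokines, and Pecam1 and Cdh5, which are also endothelial markers, were lower in KO between the treated genotypes, as given above.

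The members other than Icam2 varied together over the 8 libraries. Pearson's r of log2(normalized count + 1) was 0.932 between Selp and Sele, 0.917 between Sele and Vcam1, 0.848 between Sele and Icam1, 0.835 between Icam1 and Vcam1, 0.829 between Selp and Vcam1 and 0.733 between Selp and Icam1. Icam2 had negative values with each, from -0.785 with Selp to -0.390 with Icam1. These 8 points share mice, treatment and cell makeup, and the values are descriptive. Of the 14171 genes whose mean reached 50, those most like each member over the 8 libraries were Drc1 (r = 0.983), Gfpt2 (0.983) and Gm38365 (0.966) for Selp, Hist1h4f (0.983), Tesc (0.973) and Crip2 (0.966) for Sele, and Elk4 (0.997), Tgm2 (0.965) and Adam19 (0.961) for Icam1. For Vcam1 they were Rest (0.991), Fam107b (0.986) and the integrin gene Itga2 (0.976), and for Icam2 Qrsl1 (0.984), Znhit6 (0.978) and Rbm24 (0.978). Their ranges differed widely: Gfpt2 ran from 13.8 to 212 normalized counts, whereas Elk4 ran only from 2006 to 2298. Selp itself ran from 5.73 to 389, a wider span than that of Gfpt2.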

How the data were processed

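RNA-seq of 8 islet libraries (4 groups of 2) was analysed from 4 tables that the authors deposited, each a comparison of 2 groups over 16333 genes. HISAT2, HTSeq and DESeq2 appear in the submitters' processing notes with no version, next to GRCm38, and the labels' protocols name Trizol and standard Illumina libraries. Each deposited signal column is a group mean of library counts after the authors' size-factor scaling. The deposited log2 fold change and score (a Wald statistic) come from the authors' model, and the SE is the fold change over the score. The deposited p-values are the normal probabilities of that score, and the FDR is their Benjamini-Hochberg adjustment over all rows. A gene was called at an FDR below 0.05. The difference of the cytokine responses was tested by subtracting one deposited fold change from the other, with their SEs combined as independent. The lowest mean over all libraries was 23.2, so low genes had been removed before deposit.

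Behind every deposited group mean stand 2 whole read numbers, each multiplied by its library's fixed step, and both numbers were solved for 16260 genes (99.553%), of which 164 were settled through the mean over all libraries. Recovery and fits were tested on simulated data. No table column belonged to other samples, and the libraries of a group differed far beyond counting noise (chi-square per gene 21.0 to 42.3). Recovered libraries were fitted with limma 3.58.1 in R 4.3.3 on log2(normalized count + 1), adjusted over all recovered genes. The design text gives 2 mice for the 4 libraries of a genotype, so each mouse's islets were taken as divided between the treatments. Libraries were paired by 4 Y-linked genes, and the deviations of a mouse's 2 libraries correlated at 0.681 in KO and 0.724 in WT, so the mouse as a block was used beside the first-choice fit without it. Which numbered animal each mouse is remains unknown. The planned edgeR fit was not run, because the deposited values are means and not counts of 1 library. Positions are from GENCODE M21, in which 22 identifiers had no match.

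The members and the gene lists were chosen with earlier results of these data known. The rule for named genes takes all members, the 3 genes most like each, Nfatc2, and from each list the called genes or the 2 with the smallest p. Of the acinar and endocrine lists, which describe the preparation, only sums are given. One result that this rule would name is not reported here.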

Additional observations from a re-analysis of the deposited data

How the results depend on the processing

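None of the 5 members was called by the authors' test in any of the 4 comparisons. That count stayed at 0 with an FDR of 0.10, with p-values adjusted again over genes with a mean of at least 100 (which leaves 3 members), and in limma fits without the block, including pseudocounts of 0.5 and 5, scaling by total reads and each mouse left out. With the replicate block it became 1 for cytokines in WT (Selp; also 1 with voom), stayed at 0 in KO (1 with voom, Vcam1, adjusted p = 0.044) and became 1 over both genotypes (Vcam1; 2 with voom). Paired over both genotypes, leaving out each mouse gave 0 to 1, with the 0 coming without the KO female mouse. With sex as a covariate Vcam1 was called between the genotypes untreated and with cytokines (1 member each, adjusted p = 0.0465 and 0.0479, among 338 and 607 genes), but this fit takes the 2 libraries of a mouse as independent, so its p-values are too small. The pooled blocked fit called 142 genes, and without a mouse 29 to 177. The difference of the responses kept 0 calls in every fit, the block included.

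Signs changed for values that were never called. Between the treated genotypes Selp went from -0.77 to 0.076 in limma (0.20 with voom, 0.081 and 0.036 with pseudocounts 0.5 and 5, 0.054 with total scaling, 0.076 with sex), Sele from -0.10 to 0.50 (0.65, 0.52, 0.35, 0.48 and 0.50) and Icam1 from -0.02 to 0.10 (0.18, 0.10, 0.10, 0.082 and 0.10). With a mouse left out these ran from -1.68 to 1.83 for Selp, -0.91 to 1.91 for Sele and -0.52 to 0.73 for Icam1. With cytokines in KO, leaving out a KO mouse gave -0.089 to 0.90 for Sele and -0.30 to 0.13 for Icam2. Over both genotypes Icam2 ran from -0.052 to 0.090 with a mouse left out, and was 0.040 with voom and 0.039 with voom and the block. The cause of these shifts was not tested. The change of Vcam1 in the WT female fell from 1.22 to 0.82 when divided by the endothelial sum. The edgeR alternative was not run. Few reads of Sele and Selp in untreated WT islets (3 to 48) limit their folds, and 2 mice per genotype limit every test.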
